A study of Rattus norvegicus with 10 samples.

Results

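The genes described here carry fatty acids from blood lipoproteins through the mitochondrial matrix to the respiratory chain. All 32 genes listed for fatty acid uptake, activation, the carnitine shuttle, beta oxidation, electron transfer, acyl-CoA hydrolysis and uncoupling were on the array, and all 32 were tested, among 18393 genes and unnamed probe sets. The list is one of gene function and no measured value enters its rule, but it was drawn up with earlier results of these arrays known. A probe set is the group of array probes designed for 1 transcript. A member was represented by the probe set with the highest mean over all arrays among those annotated to that gene alone. Probe sets shared with another gene were brighter for Cd36 (mean 11.97 against 11.10) and Acot1 (7.57 against 5.64) but did not stand for them. The 32 genes had 46 probe sets, of which 43 passed the filter on low values described below. Of the 32, 25 had a mean log2 value of 10 or more.

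Ventricular heart muscle cells of Lewis rats aged 0 to 3 days were kept in primary culture for 3 days after a recovery period. The cultures were left without stimulation (nonpulsed, n = 3 arrays), stimulated electrically at 1 Hz and 2 V/cm (pulsed, n = 4), or given the same pulses in the presence of 10 µmol/L blebbistatin, an inhibitor of myosin II that blocks contraction (pulsed with blebbistatin, n = 3). There was no group with blebbistatin and without pulses, so a comparison with nonpulsed cultures differs in both pulses and drug. Every array held RNA mixed in equal parts from duplicate experiments. Dates in the titles place the arrays in 4 groups, called culture series 1 to 4. The cell isolation, the day and the array run of a series cannot be told apart. The nonpulsed group lacked series 4, the blebbistatin group lacked series 1, and only the pulsed group had all 4. Values are log2 intensities, so a difference of 1 is a doubling.

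Heart muscle draws most of its energy from fatty acids after birth, while the fetal heart relies more on glucose and lactate. Long-chain fatty acids are released from lipoproteins by lipoprotein lipase, cross the membrane with the help of CD36, bind to cytosolic binding protein and are joined to coenzyme A. Carnitine palmitoyltransferase 1 commits the acyl group to the mitochondrion and is inhibited by malonyl-CoA. In the matrix each turn of the beta oxidation spiral consists of dehydrogenation, hydration, a second dehydrogenation and thiolysis, and electrons pass from the first step through the electron transfer flavoprotein to ubiquinone. Many of these genes are known targets of peroxisome proliferator-activated receptors (PPARs) and their coactivators.

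The array facts that touch these genes were as follows. Median log2 values of the 10 arrays lay between 6.57 and 6.78. Cardiomyocyte markers were strongly present: 9 of 10 were on the array and tested, and their median log2 value lay between 12.57 and 13.32. Of 7 adipocyte markers 6 were on the array and 1 passed the filter, Cidec was at the lowest value on 9 arrays, and the brown fat gene Ucp1 averaged 3.98. Markers of fibroblasts (10 of 10), smooth muscle and pericytes (8 of 8) and macrophages and leukocytes (8 of 8) were all tested. The cultures held RNA typical of such cells at high levels for markers such as Col3a1 (mean 13.38), Acta2 (12.62) and Lyz2 (10.62). Others, such as C1qa (5.20) and Rgs5 (5.44), lay close to the filter. The log2 of the summed level of the markers ranged from 15.61 to 16.06 in nonpulsed, 16.05 to 16.26 in pulsed and 16.11 to 16.21 in blebbistatin arrays for cardiomyocytes. For fibroblasts the ranges were 15.23 to 15.88, 15.10 to 15.89 and 14.87 to 15.62, and for smooth muscle and pericytes 13.71 to 14.45, 13.82 to 14.12 and 12.94 to 13.46. The ranges for macrophages and leukocytes were 10.76 to 12.54, 10.60 to 12.28 and 10.46 to 11.51. The sums took in every listed marker on the array, also those that failed the filter. Of 8 endothelial markers 7 were on the array and 5 were tested, and Vwf was at the lowest value on 4 arrays. Their sums had 9.33 to 9.60, 9.46 to 10.37 and 9.31 to 10.22. The 6 adipocyte markers on the array had 7.0 to 7.22, 6.89 to 7.46 and 7.0 to 7.13. In RNA from mixed cultures, fewer cells of a type and less RNA per cell cannot be told apart.

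The comparison of pulsed with nonpulsed cultures asked what electric pacing does to these genes. All 32 had a positive fitted change in pulsed cultures, but no single gene passed the test. The median log2 change was 0.34, a modest shift, against 0.05 over all genes tested, of which 62.0% were positive. The difference was largest in culture series 1, with a median difference of 0.79 among the members, while series 2 and 3 gave 0.15 and 0.09. Fitted changes ran from 0.10 in Slc25a20 to 1.05 in Acot1.

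With limma and Benjamini-Hochberg adjustment at 0.05, 0 of 32 members passed, as did 0 of all genes (background 0%), and the smallest adjusted p among the members was 0.490. At an unadjusted p under 0.05, 16 of 32 members were higher and 0 lower, beside a background of 7.83% of all genes higher. Of the 18393 in the background, 11846 had 1 gene symbol, and their median log2 level was below that of the members on every array. The part of level in this and the later backgrounds was not tested. In every series that held both groups 22 of 32 members were higher (background 24.7%), and in 10 of 32 all pulsed arrays lay above all nonpulsed arrays (background 6.3%). Without series 1 the median was 0.14, with 28 of 32 changes positive and 4 of 32 at an unadjusted p under 0.05, against 3.45% of all genes higher. The nonpulsed array of series 1 was the lowest of the 10, with a median deviation of -0.63 from the genes' means and 1 of 32 members above its mean. Over all genes the median deviation of that array was -0.04. All 9 cardiomyocyte markers were also higher in the pulsed array of series 1, with a median difference of 0.80, and their fitted median was 0.34. In series 2 and 3, 9 and 6 of the 9 were higher. Their median differences there were 0.21 and 0.05, beside 0.15 and 0.09 for the members. The fitted medians of the other marker lists were 0.04 for fibroblasts, -0.17 for smooth muscle and pericytes, 0.30 for endothelium and 0.03 for macrophages and leukocytes. Their part in the result was not tested.

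Blebbistatin against pulsed cultures showed these genes when contraction was blocked and pulses went on. This comparison cannot tell the block of contraction from other effects of the drug. Again all 32 members had a positive change, higher with blebbistatin, with a median of 0.30 against 0.02 over all genes, of which 55.7% were positive. The median differences were 0.34, 0.40 and 0.41 in series 2, 3 and 4, which hold both groups. Fitted changes ran from 0.08 in Fabp3 to 1.15 in Acot1. No member passed the test (limma, smallest adjusted p = 0.294, Acot2), beside 3 of all genes (background 0.0163%).

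At an unadjusted p under 0.05, 12 of 32 members were higher with blebbistatin and 0 lower (background 6.23% higher). In all 3 series 27 of 32 were higher (background 24.1%), and in 20 of 32 every blebbistatin array exceeded every pulsed array (background 6.34%). Fitting only the arrays of both groups in series 2 to 4 gave a median of 0.39 and 25 of 32 members at an unadjusted p under 0.05, as did leaving out series 1. The count was 4 without series 2, 1 without series 3 and 5 without series 4, and 4 to 6 without any single pulsed or blebbistatin array of these series, so it depends on which arrays are fitted. The share of all genes can move with the fit as well and is not given for these refits. These counts therefore do not set the members against other genes. In the 3 blebbistatin arrays 29 to 31 of the 32 members lay above their means over all arrays, which include these 3. The members' median deviation was 0.34, 0.33 and 0.31 in series 2, 3 and 4, against 0.02, -0.01 and 0.09 over all genes. The cardiomyocyte markers had a median change of 0.00, with 5 of 9 positive. Markers of the other cell types were lower with blebbistatin, with medians of -0.29 for fibroblasts (9 of 10 negative), -0.70 for smooth muscle and pericytes (8 of 8), -0.30 for endothelium (5 of 5) and -0.33 for macrophages and leukocytes (8 of 8). The part of these cells in the result was not tested.

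The widest contrast was between pulsed cultures with blebbistatin and nonpulsed cultures. The median change of the 32 members was 0.57 against 0.07 over all genes, all 32 were positive, and the median differences in series 2 and 3 were 0.51 and 0.48. The fold changes above 2 were those of Acot1, Acot2, Hadh, Acaa2 and Cpt1b, at 4.59, 2.31, 2.12, 2.03 and 2.02. Changes ran from 0.36 in Hsd17b10 to 2.20 in Acot1. For Acot1 the fold rests on dim values, since its nonpulsed arrays averaged 4.84, below the filter at 5.09. This comparison shares its arrays with the other comparisons, which share the pulsed arrays with each other, so the 3 sets of values are not independent.

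None of the 32 passed (limma, Benjamini-Hochberg), while 63 of all genes did (background 0.343%). The closest were Hadh (log2 change 1.08, SE 0.16, adjusted p = 0.0536), Acot2 (1.21, SE 0.19, adjusted p = 0.0598), Crat (0.88, SE 0.16, adjusted p = 0.0651), Ech1 (0.66, SE 0.12, adjusted p = 0.0651), Acaa2 and Cpt1b (adjusted p = 0.0682 in both). At an unadjusted p under 0.05, 31 of 32 were higher, Ucp3 being the exception (background 15.8%). In both series that held the groups 31 of 32 were higher (background 39.1%), and in 29 of 32 the groups did not overlap (background 18.1%). With culture series as a random block, 17 of 32 members passed, in a fit that called 1020 of all genes (background 5.55%). Without series 1, Hadh (adjusted p = 0.0437) and Cpt1b (adjusted p = 0.0461) passed among 46 genes. Without series 2, 3 or 4 no member passed, with 0, 0 and 8 genes called in all and 25, 20 and 28 of 32 members at an unadjusted p under 0.05. Leaving out single arrays of these series gave 0 members and 0 to 8 genes called, and 19 members at an unadjusted p under 0.05 without the blebbistatin array of series 3. The shares of all genes at that unadjusted p are not given for these refits, so the counts do not set the members against other genes. The fit of only the groups and series compared called 0 members and 2 genes, and that with no filter 0 members and 1 gene. The cardiomyocyte markers had a median change of 0.40 (8 of 9 positive), fibroblast markers -0.24, smooth muscle and pericyte markers -0.85, endothelial markers -0.05 and macrophage and leukocyte markers -0.44, and their part in the result was not tested.

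**Figure D1:**
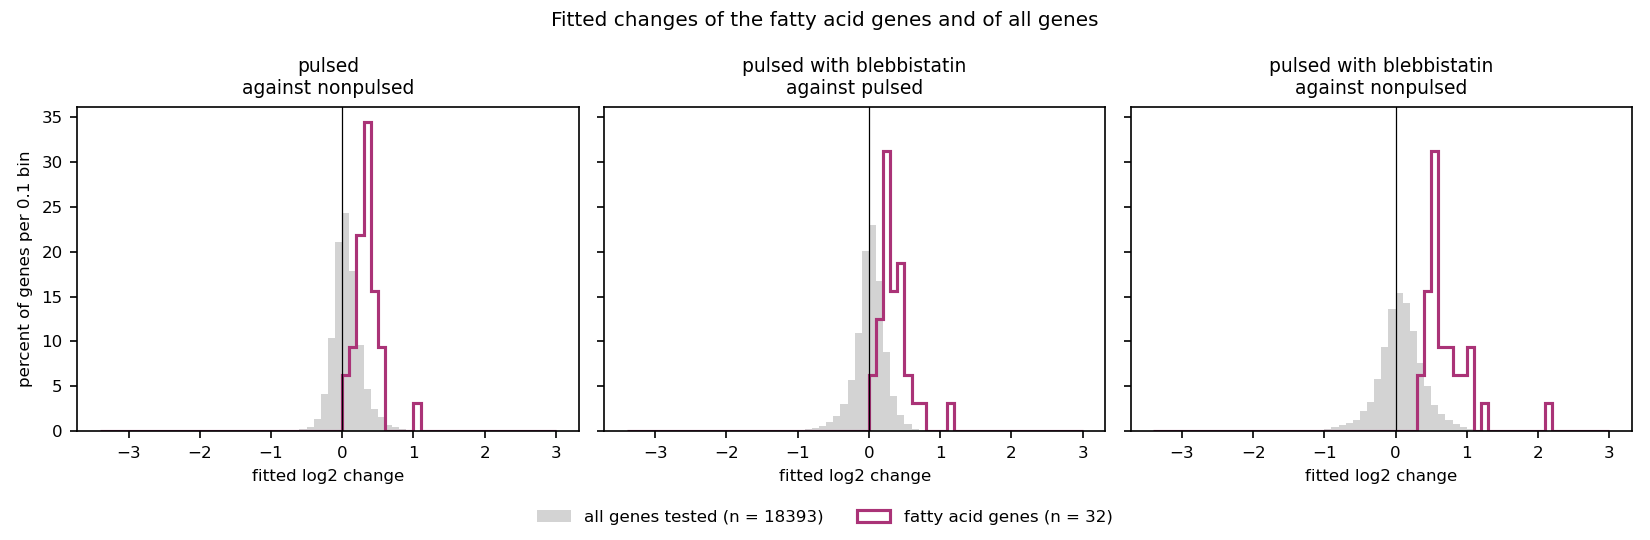
Distribution of fitted log2 changes in bins of 0.1, as a percent of genes, for all 18393 genes tested (grey) and the 32 fatty acid genes (line), in each comparison. The fatty acid genes lie to the right of 0 in all 3 panels, with medians of 0.34, 0.30 and 0.57.

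The 32 genes fall into 10 steps, 2 of which, activation (Acsl1) and malonyl-CoA removal (Mlycd), are single genes. In the following, changes are given for pulsed against nonpulsed, blebbistatin against pulsed and blebbistatin against nonpulsed cultures, in that order. The step medians were 0.32, 0.22 and 0.53 for uptake, 0.37, 0.41 and 0.69 for the carnitine shuttle, and 0.37, 0.30 and 0.67 for the acyl-CoA dehydrogenases. They were 0.32, 0.28 and 0.56 for hydration, second oxidation and thiolysis, 0.28, 0.28 and 0.54 for the auxiliary enzymes and 0.27, 0.29 and 0.59 for electron transfer. The uncoupling proteins had 0.25, 0.50 and 0.75, and the thioesterases 0.81, 0.89 and 1.70. Both of these steps have 2 genes and varied between series: for blebbistatin against pulsed cultures the medians in series 2, 3 and 4 were 1.61, 0.08 and -0.11 for uncoupling and 1.49, 1.19 and 0.11 for the thioesterases. Differences between steps were not tested.

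**Figure D2:**
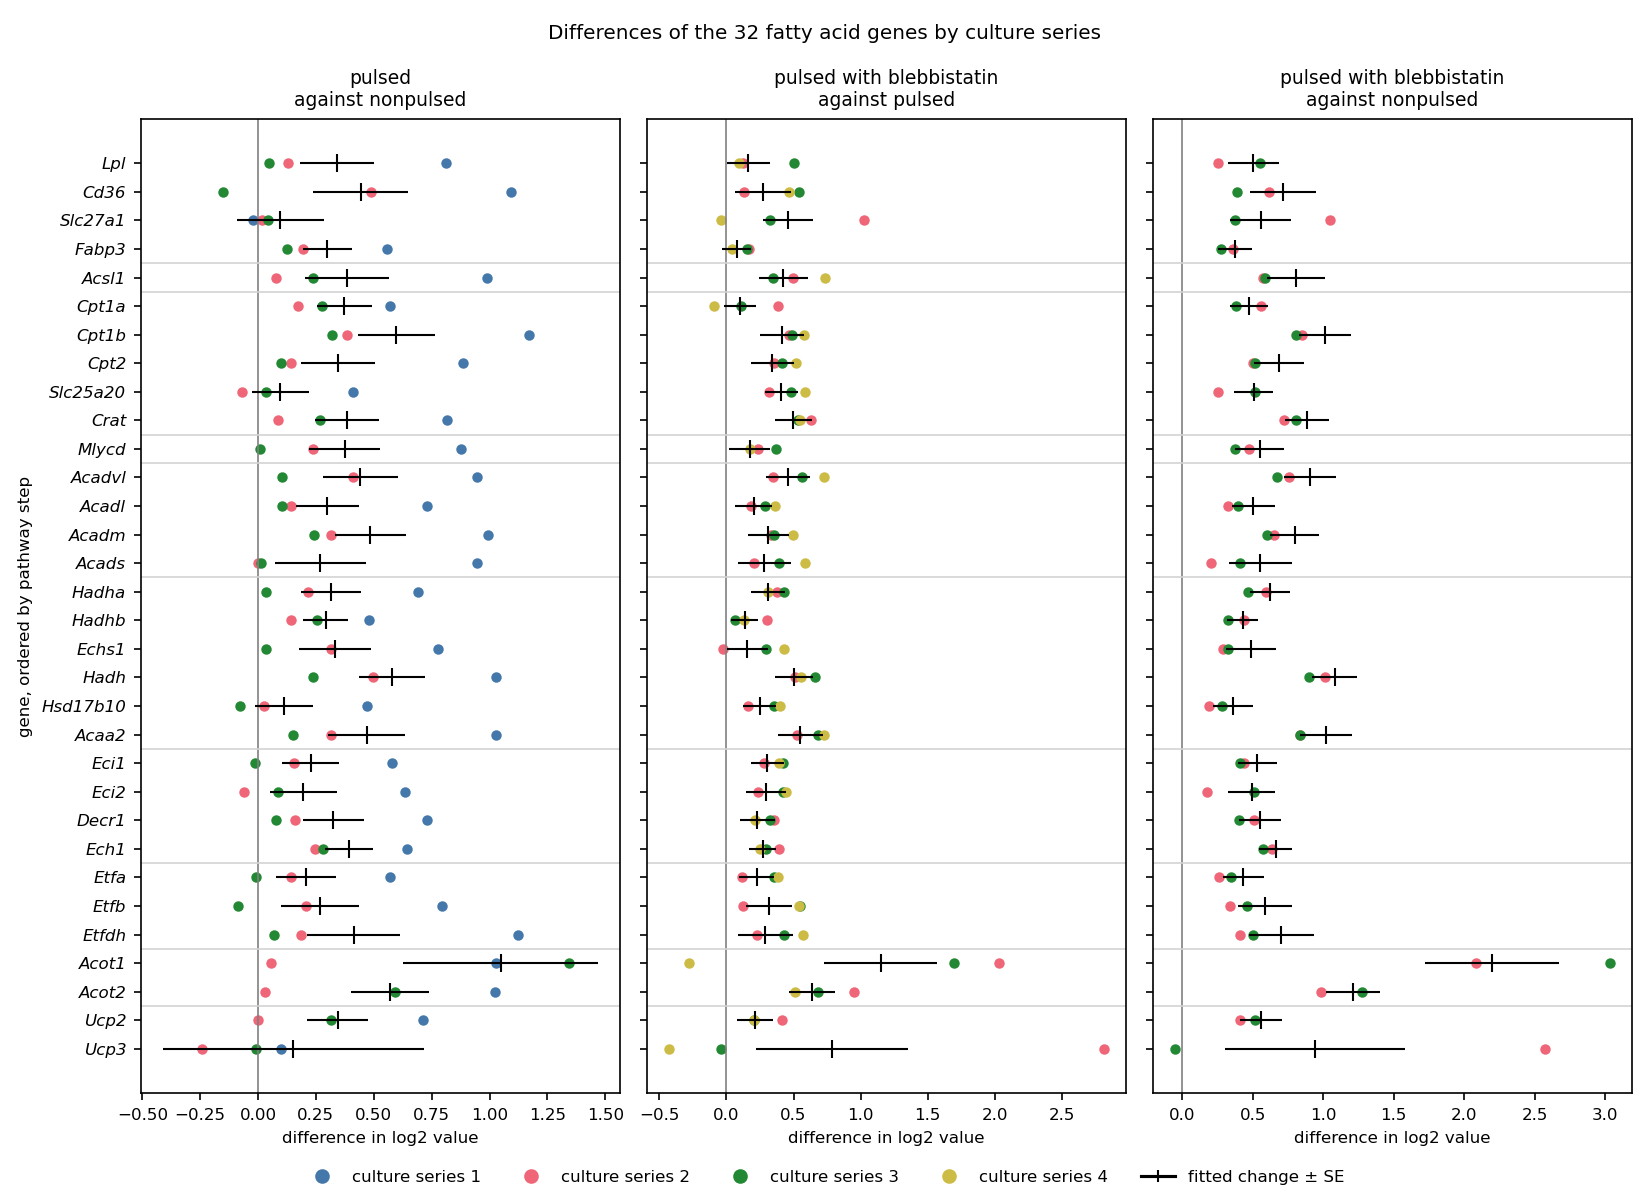
Differences in log2 value within each culture series (points) and fitted change ± SE (black) for the 32 genes in pathway order, with grey lines between steps, in each comparison. In the left panel the points of series 1 lie to the right of those of series 2 and 3 for most genes, and in the middle panel 1 series stands far from the others for Ucp3 (2.81 in series 2), Slc27a1 (1.03 in series 2) and Acot1 (-0.28 in series 4).

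Among the uptake genes, Cd36, the membrane glycoprotein that takes up long-chain fatty acids (probe set 1367689_a_at), had log2 values of 10.26, 10.80 and 11.03 in the nonpulsed arrays of series 1 to 3. It had 11.36, 11.28, 10.87 and 11.07 in the pulsed arrays of series 1 to 4, and 11.41, 11.42 and 11.54 in the blebbistatin arrays of series 2 to 4. Pulsed and nonpulsed arrays overlapped and series 3 went the other way (-0.15), while the blebbistatin arrays lay above all others. The fitted changes were 0.44 (SE 0.21), 0.27 (SE 0.21) and 0.71 (SE 0.24), with limma adjusted p of 0.565, 0.645 and 0.144. Lpl, the lipase that frees fatty acids from lipoproteins, had changes of 0.34, 0.16 and 0.50. Fabp3, the heart form of the cytosolic binding protein, had 0.30, 0.08 and 0.38. Slc27a1, a fatty acid transport protein, had 0.10, 0.46 and 0.55, and it was higher with blebbistatin than in the pulsed array by 1.03 for series 2 and 0.33 for series 3 but not for series 4 (-0.04).

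Acsl1, the long-chain acyl-CoA synthetase of the heart, had changes of 0.38 (SE 0.18), 0.42 (SE 0.18) and 0.81 (SE 0.21). Its blebbistatin arrays averaged 12.47 ± 0.07 (SD, n = 3), above all pulsed arrays at 11.94 ± 0.19 (SD, n = 4), while nonpulsed arrays spread around 11.57 ± 0.57 (SD, n = 3).

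The muscle form of carnitine palmitoyltransferase 1, Cpt1b (1367742_at), separated the arrays into 3 levels. Its log2 values were 10.11, 10.97 and 11.05 in nonpulsed arrays, 11.28, 11.36, 11.37 and 11.24 in pulsed arrays, and 11.82, 11.86 and 11.82 in blebbistatin arrays. The groups did not overlap, and the step from pulsed to blebbistatin was similar in series 2, 3 and 4 (0.47, 0.49 and 0.58), whereas the step from nonpulsed to pulsed was 1.17 for series 1 against 0.38 and 0.32 for series 2 and 3. Fitted changes were 0.60 (SE 0.17), 0.42 (SE 0.17) and 1.01 (SE 0.19), with limma adjusted p of 0.490, 0.398 and 0.0682.

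Cpt1a (1386946_at), the form that prevails in liver and in the fetal heart, had log2 values of 9.98, 10.26 and 10.15 in nonpulsed, 10.55, 10.44, 10.43 and 10.65 in pulsed, and 10.82, 10.53 and 10.55 in blebbistatin arrays. Pulsed arrays lay above all nonpulsed arrays, but blebbistatin and pulsed arrays overlapped, with differences of 0.39, 0.11 and -0.10 in series 2 to 4. The changes were 0.37 (SE 0.12), 0.10 (SE 0.12) and 0.47 (SE 0.13), with adjusted p of 0.495, 0.782 and 0.115. Whether Cpt1a and Cpt1b differed from each other in their response was not tested.

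The rest of the shuttle had positive changes in all comparisons. Slc25a20, the carnitine-acylcarnitine translocase, had changes of 0.10, 0.41 and 0.51, and its blebbistatin arrays, at 10.57 ± 0.09 (SD, n = 3), all exceeded its pulsed arrays at 10.11 ± 0.10 (SD, n = 4). Crat, carnitine acetyltransferase, which buffers acetyl-CoA, had 0.38, 0.50 and 0.88 and was higher with blebbistatin by 0.63, 0.54 and 0.55 in series 2, 3 and 4. Cpt2, the enzyme that returns the acyl group to coenzyme A inside the matrix, had 0.35, 0.34 and 0.69. Mlycd, which degrades the CPT1 inhibitor malonyl-CoA, had 0.37, 0.17 and 0.55, with series differences of 0.87, 0.24 and 0.01 between pulsed and nonpulsed arrays.

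Acadm (1367702_at), medium-chain acyl-CoA dehydrogenase and a classical PPAR alpha target, had log2 values of 10.55, 11.20 and 11.31 in nonpulsed arrays. The pulsed arrays had 11.54, 11.51, 11.55 and 11.46, and the blebbistatin arrays 11.84, 11.91 and 11.96. The 3 groups did not overlap, and pulsed arrays of the 4 series differed by little (SD 0.04). Changes were 0.49 (SE 0.15), 0.31 (SE 0.15) and 0.80 (SE 0.17), with limma adjusted p of 0.495, 0.475 and 0.0849. Acadvl, which acts on very long chains at the inner membrane, had 0.44, 0.46 and 0.90. Acadl, for long chains, had 0.30, 0.20 and 0.50, and Acads, for short chains, 0.27, 0.28 and 0.55. For Acads the pulsed and nonpulsed arrays differed by 0.95 in series 1 and by -0.00 and 0.01 in series 2 and 3.

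At the second dehydrogenation Hadh (1370237_at), the 3-hydroxyacyl-CoA dehydrogenase of medium and short chains, also had 3 separate levels. Its values were 10.28, 10.44 and 10.57 in nonpulsed, 11.31, 10.93, 10.81 and 11.13 in pulsed, and 11.44, 11.47 and 11.69 in blebbistatin arrays. No groups overlapped. The changes were 0.58 (SE 0.14), 0.50 (SE 0.14) and 1.08 (SE 0.16), with limma adjusted p of 0.490, 0.308 and 0.0536.

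Acaa2 (1386880_at), a mitochondrial thiolase that closes the spiral, had 10.26, 10.91 and 10.81 in nonpulsed, 11.29, 11.23, 10.96 and 10.88 in pulsed, and 11.75, 11.64 and 11.61 in blebbistatin arrays. The pulsed array of series 4 lay just below the nonpulsed array of series 2, so those groups overlapped, while all blebbistatin arrays were higher. Its changes were 0.47 (SE 0.17), 0.55 (SE 0.17) and 1.02 (SE 0.19). The subunits of the trifunctional protein, which carries out the last 3 reactions on long chains, had smaller changes: 0.32, 0.31 and 0.62 for Hadha, and 0.29, 0.14 and 0.43 for Hadhb. Echs1, the short-chain enoyl-CoA hydratase, had 0.33, 0.16 and 0.49. Hsd17b10, a dehydrogenase that acts mainly on branched-chain acyl-CoA and is also a subunit of mitochondrial RNase P, had 0.11, 0.25 and 0.36.

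The auxiliary enzymes prepare unsaturated fatty acids for the spiral. Ech1, the dienoyl-CoA isomerase, had changes of 0.39, 0.27 and 0.66, and its pulsed arrays lay above all nonpulsed arrays. Decr1, the dienoyl-CoA reductase, had 0.32, 0.23 and 0.55. The enoyl-CoA isomerases Eci1 and Eci2 had 0.23, 0.31 and 0.53, and 0.20, 0.30 and 0.49. Eci1 was nearly constant over the pulsed arrays of the 4 series, at 10.55 ± 0.02 (SD, n = 4), and all its blebbistatin arrays were higher, at 10.92 ± 0.06 (SD, n = 3).

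Electron transfer completes the first oxidation. Etfa and Etfb encode the subunits of the electron transfer flavoprotein, and Etfdh the dehydrogenase that passes its electrons to ubiquinone. Their changes were 0.21, 0.23 and 0.43 for Etfa, 0.27, 0.32 and 0.59 for Etfb, and 0.41, 0.29 and 0.70 for Etfdh. In all 3 genes every blebbistatin array lay above every pulsed array, while pulsed and nonpulsed arrays overlapped.

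The acyl-CoA thioesterases split acyl-CoA into free fatty acid and coenzyme A, Acot1 in the cytosol and Acot2 in mitochondria. Acot2 (1391433_at) had log2 values of 9.15, 9.90 and 9.59 in nonpulsed, 10.18, 9.93, 10.18 and 9.72 in pulsed, and 10.88, 10.86 and 10.23 in blebbistatin arrays. Pulsed and nonpulsed arrays overlapped, and blebbistatin arrays lay above all of them. Changes were 0.57 (SE 0.17), 0.64 (SE 0.17) and 1.21 (SE 0.19), with limma adjusted p of 0.495, 0.294 and 0.0598. Other probe sets of Acot2 alone differed in overlap. In 1384115_at (mean 9.50) the blebbistatin array of series 4, at 9.82, lay just below the nonpulsed array of series 2, at 9.83. In 1388210_at (mean 8.71) all blebbistatin arrays lay above all others.

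Acot1 (1398250_at) was dim, with a mean log2 value of 5.64 close to the filter at 5.09. Its values were 4.74, 5.49 and 4.29 in nonpulsed, 5.77, 5.54, 5.63 and 5.17 in pulsed, and 7.57, 7.33 and 4.89 in blebbistatin arrays. It was high with blebbistatin in series 2 and 3 and not in series 4, where the difference from the pulsed array was -0.28. The changes of 1.05 (SE 0.42), 1.15 (SE 0.42) and 2.20 (SE 0.47) had adjusted p of 0.530, 0.374 and 0.0849. A probe set annotated to both genes (1388211_s_at) had 8.42, 8.64 and 7.92 in the blebbistatin arrays of series 2 to 4, against 7.19 to 7.89 in pulsed arrays and 6.48 to 7.0 in nonpulsed arrays. The changes of this shared probe set were 0.83, 0.78 and 1.62, and its signal cannot be assigned to either gene.

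Ucp2 and Ucp3 encode carriers of the inner mitochondrial membrane that respond to fatty acid supply. Ucp2 (1368669_at) had values of 11.24, 11.79 and 11.30 in nonpulsed, 11.95, 11.79, 11.62 and 11.60 in pulsed, and 12.20, 11.82 and 11.81 in blebbistatin arrays. Both pairs of neighbouring groups overlapped, and changes were 0.34 (SE 0.13), 0.21 (SE 0.13) and 0.56 (SE 0.15).

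Ucp3 (1382958_at) was higher in only 1 of 3 series in each of the first 2 comparisons. Its values were 9.33, 8.52 and 8.56 in nonpulsed, 9.43, 8.28, 8.55 and 9.11 in pulsed, and 11.10, 8.51 and 8.68 in blebbistatin arrays. A single array, that with blebbistatin of series 2, stood 2.81 above the pulsed array of its series, while series 3 and 4 gave -0.04 and -0.43. The fitted changes were 0.15 (SE 0.56), 0.79 (SE 0.56) and 0.94 (SE 0.64), and leaving out single arrays or series took the change with blebbistatin against pulsed from -0.24 to 1.35. Its other probe set (1387681_at) was also highest in that array, at 6.74 against 6.09 to 6.43 in the others, but with changes of only 0.11, 0.22 and 0.33.

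**Figure D3:**
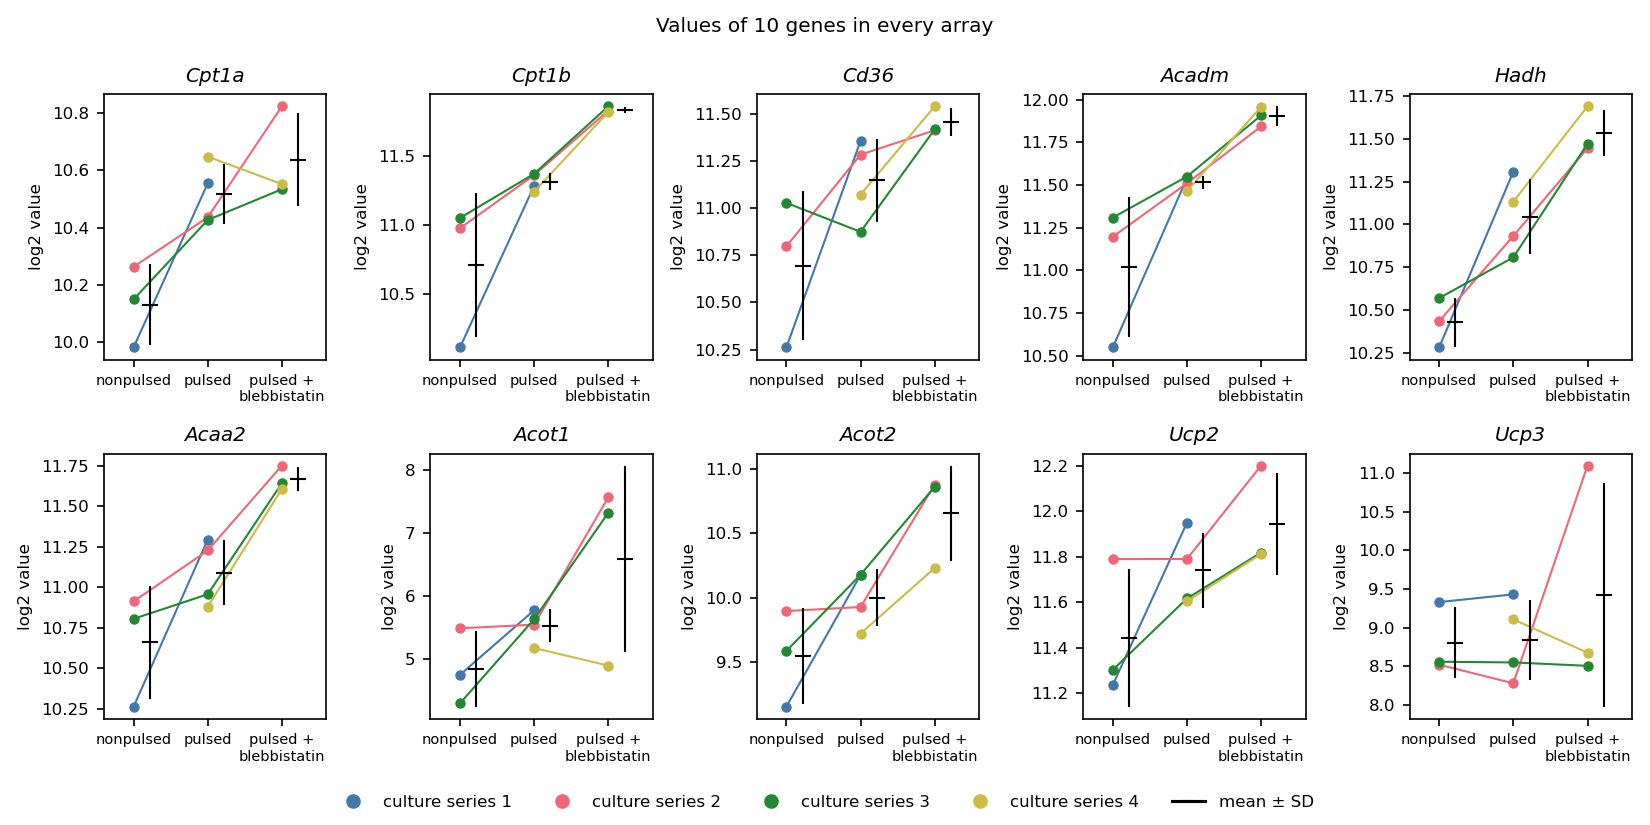
Log2 values of 10 genes in every array, coloured by culture series and joined within a series, with the mean ± SD of each group beside the points (n = 3, 4 and 3); each panel has its own vertical axis, which does not start at 0. Among the 10 genes shown, the groups do not overlap for Cpt1b, Acadm and Hadh, and for Ucp3 the blebbistatin array of series 2 stands alone at 11.10.

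Most other probe sets of the members had changes of the same sign as the chosen one. Exceptions were dim probe sets below the filter for Acsl1 (1382887_at, -0.07 in pulsed against nonpulsed cultures), Hadha (1394763_at, -0.27 and -0.24 in the blebbistatin comparisons) and Hadh (1389922_at, mean 4.28, with -0.28, -0.23 and -0.51). Of those that passed the filter, Eci1's second probe set (1370961_at, mean 7.35) had -0.00, -0.13 and -0.13, and one annotated to both Eci2 and Eci3 (1372765_a_at) had -0.00, 0.33 and 0.32.

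Promoter sequences of 5 of the genes given array by array are shown to let the regulatory regions be read beside the values. The 250 bases before the transcription start are RefSeq sequence of assembly GRCr8, and those of 26 of the 32 genes were used here (not those of Decr1, Lpl, Cpt1b, Ech1, Acaa2 and Acadl). AGGTCA, the core sequence bound by PPARs and related nuclear receptors, is in capitals. Acot1 (chr6:109367024-109367273, + strand) and Acot2 (chr6:109342590-109342839, + strand) are neighbours whose windows lie 24.4 kb apart. Hadh (chr2:222504447-222504696, - strand) and Acadm (chr2:245542865-245543114, - strand) had groups that did not overlap, and Ucp3 (chr1:164227660-164227909, + strand) is the gene with 1 high array.
Acot1: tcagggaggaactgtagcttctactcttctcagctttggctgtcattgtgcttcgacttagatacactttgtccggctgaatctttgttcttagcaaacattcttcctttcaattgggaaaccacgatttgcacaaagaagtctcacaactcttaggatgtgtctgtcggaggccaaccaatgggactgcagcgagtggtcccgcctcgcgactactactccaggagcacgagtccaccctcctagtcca
Acot2: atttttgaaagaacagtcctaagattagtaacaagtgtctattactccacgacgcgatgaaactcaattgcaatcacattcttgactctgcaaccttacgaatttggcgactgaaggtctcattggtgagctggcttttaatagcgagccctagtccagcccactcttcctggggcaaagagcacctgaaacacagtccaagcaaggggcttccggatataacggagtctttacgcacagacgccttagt
Hadh: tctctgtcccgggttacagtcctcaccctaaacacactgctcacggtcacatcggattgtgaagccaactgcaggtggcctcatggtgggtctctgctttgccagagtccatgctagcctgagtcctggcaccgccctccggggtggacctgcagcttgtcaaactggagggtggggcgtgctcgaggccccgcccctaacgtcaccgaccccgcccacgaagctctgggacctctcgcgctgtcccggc
Acadm: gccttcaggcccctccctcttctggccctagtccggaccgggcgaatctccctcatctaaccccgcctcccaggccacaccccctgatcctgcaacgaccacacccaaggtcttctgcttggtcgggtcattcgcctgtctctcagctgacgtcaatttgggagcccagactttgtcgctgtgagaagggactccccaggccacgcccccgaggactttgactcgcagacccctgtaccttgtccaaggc
Ucp3: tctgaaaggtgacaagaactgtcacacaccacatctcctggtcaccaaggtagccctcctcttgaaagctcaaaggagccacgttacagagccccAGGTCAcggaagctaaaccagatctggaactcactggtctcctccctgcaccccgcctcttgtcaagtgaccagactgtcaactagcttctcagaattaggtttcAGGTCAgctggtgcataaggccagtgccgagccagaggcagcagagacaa

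Of these 5 windows only that of Ucp3 held AGGTCA on either strand, with 2 copies that begin 155 and 50 bases before the start. Over the 26 members with a window, 5 held it (19.2%: Acadvl, Echs1, Eci1, Slc27a1 and Ucp3), beside 14.1% of 33469 rat promoter windows of the same length. The direct repeat of AGGTCA with 1 base between the copies, the full PPAR element in its exact form, was in 0 of 26 and in 0.0508% of all windows. TCAAGGTCA, an extended core sequence of estrogen-related receptors that itself contains AGGTCA, was in 0 of 26 and in 0.388% of all windows, both strands searched. These are matches of letters within 250 bases and say nothing of binding.

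The members were also compared between culture series. In a limma F test of the series, 0 of 32 passed, beside 7.97% of all genes, and the smallest adjusted p was 0.0789 for Lpl. Over the 4 pulsed arrays the range of a member had a median of 0.30, from 0.05 in Eci1 to 1.15 in Ucp3, compared with 0.43 over all genes tested. The levels were unlike: in these arrays the median log2 value was 10.85 to 11.15 for the members and 7.56 to 7.70 for all genes tested. The part of level in the range was not tested.

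Of 51 other genes of fatty acid metabolism, 43 were tested, with median changes of 0.13, 0.13 and 0.31. In the fit with culture series as a fixed block, 1 of 43 passed in any comparison: Plin5, perilipin 5, which coats lipid droplets at their contact with mitochondria, was higher with blebbistatin than in nonpulsed cultures (1.52, SE 0.21, limma adjusted p = 0.0436), with 7.79 ± 0.23 against 6.17 ± 0.60 (SD, n = 3 each). It lost the call in 14 of 23 alternative fits, among them only the arrays compared (adjusted p = 0.0697), quantile normalization (0.0504), no filter (0.0847) and leaving out any one series but the first. Its other changes were 0.82 and 0.70 and did not pass. Alternative fits were followed only for the gene with the largest change of each list, not for all 43. With the random block Ppargc1b (limma adjusted p = 0.0336), Slc22a5 (0.0423), Pex11a (0.0186) and Acad10 (0.0131) also passed in blebbistatin against nonpulsed cultures. That fit called 5.55% of all genes. Acad10 passed in this comparison with no block (limma adjusted p = 0.0499) and with the trended prior (limma adjusted p = 0.0486) too. The genes called in all by those fits are given further below.

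Regulators of the pathway, 12 of 13 of them tested, had medians of 0.29, 0.23 and 0.55, with 11, 11 and 10 positive. The largest were Ppargc1b, a coactivator of mitochondrial genes (1.03 in pulsed against nonpulsed cultures and 1.52 in blebbistatin against nonpulsed), and the retinoid receptor gene Rxrg (0.64 in blebbistatin against pulsed). Of other uptake and activation genes 9 of 12 were tested, with medians of -0.22, 0.01 and -0.19. Their largest changes were -0.45 and 0.29 for Fabp4, a binding protein of fat and endothelium, and 0.59 for the carnitine transporter gene Slc22a5. Peroxisomal beta oxidation genes (4 of 7 tested) had 0.10, 0.15 and 0.24, led by the peroxisome division gene Pex11a with 0.75, 0.41 and 1.15. Other acyl-CoA enzymes (10 of 11 tested) had 0.11, 0.21 and 0.20, with Acad10 at 0.68 and 0.99 and Acot13 at 0.38. Known PPAR targets and malonyl-CoA synthesis genes (8 of 8) had 0.37, 0.11 and 0.57, with Angptl4, an inhibitor of lipoprotein lipase, at 0.82 between pulsed and nonpulsed cultures.

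**Figure D4:**
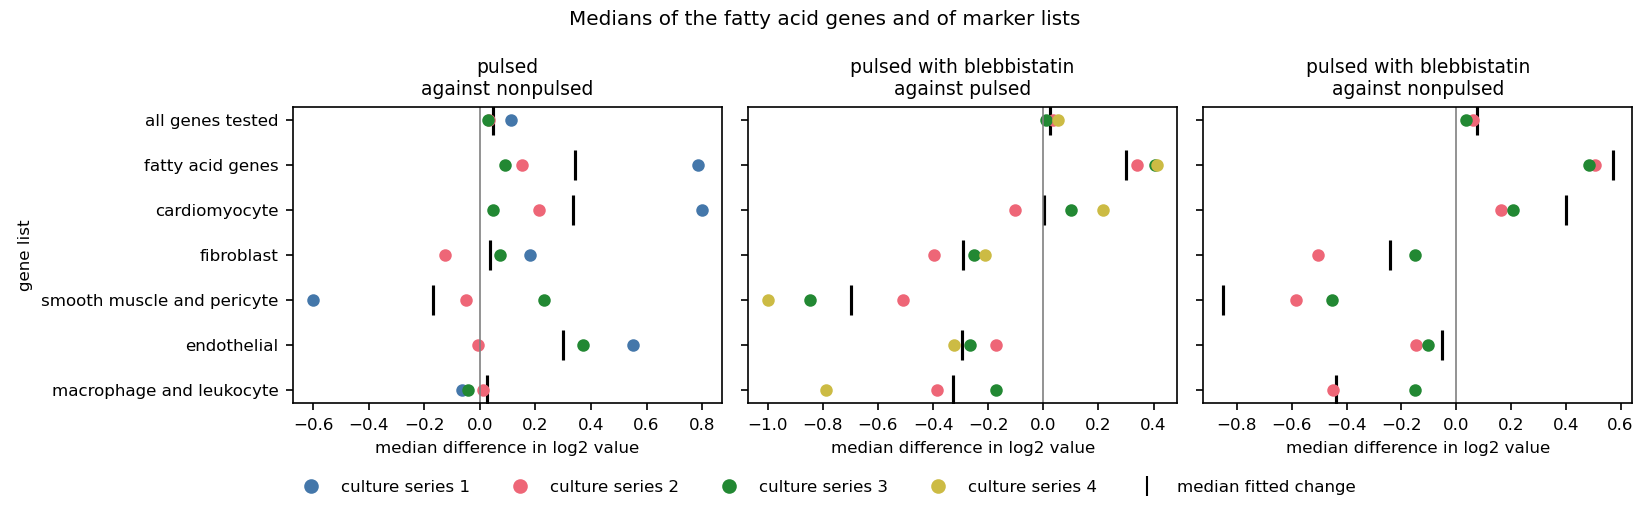
Median difference in log2 value within each culture series (points) and median fitted change (black bars) for all genes tested, the 32 fatty acid genes and the marker lists of cell types, in each comparison. In the left panel fatty acid genes and cardiomyocyte markers lie together (0.79 and 0.80 in series 1), and in the middle panel they are apart, at fitted medians of 0.30 and 0.00, with smooth muscle markers at -0.70.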

How the data were processed

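Per the labels' protocols, Trizol-extracted total RNA was made into biotinylated cRNA for Affymetrix rat arrays. Per the submitters' processing notes, PLIER in Affymetrix Expression Console 1.1 gave the deposited log2 values, 1 per probe set and array. Its settings and the logarithm's base are not stated there, and base 2 was read from the range of the values. No further scaling was applied. Precision is limited by how many arrays there are.

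Of 31099 probe sets, 57 controls and the lowest 25% by mean (below 5.09) were left out. Probe sets were named through the platform annotation. Among those with 1 gene symbol, the one with the highest mean stood for a gene. The groups came from the treatment labels and the culture series from the titles. The series' design text speaks of 3 arrays per treatment, whereas 4 arrays are labelled as pulsed, and all 4 entered the fit. With series as a block, p-values measure how the treatment differences vary between culture series.

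Differences were fitted with limma 3.58.1 in R 4.3.3 on the 10 arrays together, blocked by culture series, two-sided, and adjusted by the Benjamini-Hochberg method over 18393 tests at 0.05. Because all groups share the fit, a fitted change is not simply the mean of the differences within series. Arrays of the same series, which the titles give, deviated together from their group means (r of 0.35 to 0.64 in 8 pairs). For arrays of different series and groups r was -0.58 to 0.49 in 25 pairs, so the ranges overlapped. The random block used statmod 1.5.0. The fit was tested on simulated data. Promoter windows were searched in Python 3.11.

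The members, the other gene lists and the marker lists were chosen with earlier results of these data known. Values in every array are given for the 4 largest changes per comparison and for Cpt1a, Cpt1b, Cd36, Acadm, Ucp2 and Ucp3, and other probe sets where they differ in sign or by over 1. Other pathway genes are named if they passed, or as the largest change of a list.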

Additional observations from a re-analysis of the deposited data

How the results depend on the processing

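The direction of the members' median, positive in every comparison, held under all alternatives run, and 0 of 32 members passed in the first 2 comparisons in any of them. With 3 or 4 arrays a group the adjusted p of a single gene rests on the setting. Of 850, 850 and 849 values of single genes under 23 alternatives, 22, 5 and 2 turned in sign. Median change of members and counts under the alternatives were as follows.

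In pulsed against nonpulsed cultures, 10 members had an unadjusted p under 0.05 with only the groups and series compared and 10 with median centring, and the change of Ucp3 was -0.050 in the former. With blebbistatin against pulsed, genes called were 1 with no replicate block, 7 with a random block, 0 with only the arrays compared, 0 with no filter and 6 with the lowest 50% left out. The members' median was 0.34 with no block and 0.39 with only the arrays compared, where 25 members had an unadjusted p under 0.05. With blebbistatin against nonpulsed, genes called were 30 with no replicate block, 1020 with a random block, 2 with only the arrays compared, 1 with no filter and 136 with a trended prior. Members called were 1 with no block, 17 with a random block (background 5.55%), 1 with quantile normalization (Hadh with no block and with quantile normalization) and 4 with the trended prior (Hadh, Acot2, Crat and Ech1). The genes called in all are not given for quantile normalization, so that call of Hadh has no share beside it. The median was 0.65, 0.61, 0.47, 0.54 and 0.49 with no block, a random block, only the arrays compared, quantile normalization and median centring. The cause of these shifts was not tested.

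Leaving out each array or series in turn gave 4 to 16 members at an unadjusted p under 0.05 in pulsed against nonpulsed cultures and medians of 0.14 to 0.45, both lowest without series 1. Single changes ran from -0.016 to 0.23 for Slc27a1, -0.049 to 0.21 for Slc25a20, -0.042 to 0.44 for Acads, -0.050 to 0.20 for Hsd17b10, -0.0056 to 0.35 for Eci2, -0.18 to 0.64 for Ucp3 and -0.92 to 0.10 for Fabp4. With blebbistatin against pulsed, 0 to 30 genes were called, 1 to 25 members had an unadjusted p under 0.05 and the median was 0.23 to 0.39, while Cpt1a ran from -0.027 to 0.19, Ucp3 from -0.24 to 1.35 and Fabp4 from -0.0070 to 0.83. With blebbistatin against nonpulsed, 0 to 46 genes and 0 to 2 members were called, 19 to 30 members had an unadjusted p under 0.05, the median was 0.47 to 0.72, Ucp3 ran from -0.22 to 1.61 and the adjusted p of Plin5 over all alternatives from 0.0131 to 0.329. The F test of the culture series called 13 to 1469 genes and 0 to 4 members.

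The counts of members with an unadjusted p under 0.05, those higher in every series and the largest change of each list of other pathway genes were recomputed under alternatives chosen after the data were seen. Where no share of all genes is printed, counts at an unadjusted p under 0.05 in these refits describe the members alone. Pulsed arrays exceeded nonpulsed arrays in every series for 23 to 27 members when a series was left out, 23 without series 1 beside 33.5% of all genes, and for 16 after median centring, beside 14%.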
